A study of Mus musculus with 6 samples.

Results

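The syndecans and glypicans, the main families of cell surface proteoglycans that carry heparan sulfate, were examined in cultured cardiac fibroblasts (CFs). Members were chosen by symbol: the deposited table had rows for the 4 syndecans Sdc1, Sdc2, Sdc3 and Sdc4 and for the 5 glypicans Gpc1, Gpc2, Gpc3, Gpc4 and Gpc6, which makes 9 of its 19446 genes. All 9 had at least 10 reads in at least 2 libraries and were among the 15948 genes tested. RNA-seq had been performed on 3 wild type (WT) and 3 CharmeKO libraries of CFs from mice aged 5 weeks. CharmeKO mice carry a polyadenylation signal inserted into the *Charme* locus, which ends transcription of this long non-coding RNA, and WT mice are the controls. Per the study's methods, mice were on the C57BL/6J background and atrial tissue was collected from several littermates. CFs grew out of fragments of this tissue on fibronectin in serum-rich medium. How many animals went into each library is not stated. The sample titles give an age of 5 weeks, while the methods give a range around it for these explant cultures. The libraries therefore describe CFs after outgrowth in culture, and freshly isolated CFs were not analysed here. The comparison asks whether fibroblasts from hearts without *Charme* differ in the genes of these proteoglycans.

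Heparan sulfate is a long sulfated sugar chain, built in the Golgi apparatus on a core protein. It binds growth factors, morphogens, chemokines and matrix proteins at the cell surface, and so sets where these ligands are held and how they meet their receptors. Syndecans span the membrane and have a short cytoplasmic tail that reaches the cytoskeleton, while glypicans are globular proteins held in the outer leaflet by a glycosylphosphatidylinositol anchor and are best known for tuning Wnt, Hedgehog, FGF and BMP signals. In the heart, syndecan-4 sits in focal adhesions of fibroblasts and cardiomyocytes and is known for its part in fibroblast activation under load.

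The shared sequence of each family is shown because it marks what the members have in common, and how far their bases differ there. In the annotated transcripts, no stretch of 50 bases of a member also occurred in another syndecan or glypican. The ends of the 4 syndecan coding sequences are given first, from the GENCODE M21 transcripts of the mouse genome build GRCm38, with the last 37 codons of each, stop codon included. Capitals mark the 7 codons of the stretch next to the membrane and the last 5 codons, which hold the motif bound by PDZ domain proteins such as syntenin. The capital bases were identical at 80.6 to 94.4% of 36 positions between pairs of syndecans, whereas the lower case bases between them encode the variable region, 14 codons long in Sdc4 and 18 to 20 in the others.
Sdc1: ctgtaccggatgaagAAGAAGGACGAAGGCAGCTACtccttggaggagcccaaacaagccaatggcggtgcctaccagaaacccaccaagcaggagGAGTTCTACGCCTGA
Sdc2: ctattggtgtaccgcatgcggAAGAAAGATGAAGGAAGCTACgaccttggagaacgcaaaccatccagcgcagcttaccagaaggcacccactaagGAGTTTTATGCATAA
Sdc3: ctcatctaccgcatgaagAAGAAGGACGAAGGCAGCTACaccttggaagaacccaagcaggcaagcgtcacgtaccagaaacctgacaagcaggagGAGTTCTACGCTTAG
Sdc4: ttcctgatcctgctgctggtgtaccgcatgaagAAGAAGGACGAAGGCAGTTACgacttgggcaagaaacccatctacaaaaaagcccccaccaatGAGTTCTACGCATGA

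The glypicans share a globular domain fixed by disulfide bonds. The stretch of 72 coding bases that carries the family signature is given for the 5 glypicans, from the same transcripts, with the 5 cysteine codons in capitals. It started at codon 254 to 261 in each. Over the whole coding sequence, glypican pairs were identical at 60.7 to 69.2% of aligned bases, with the highest value for Gpc4 and Gpc6.
Gpc1: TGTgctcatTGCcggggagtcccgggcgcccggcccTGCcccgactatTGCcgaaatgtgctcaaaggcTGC
Gpc2: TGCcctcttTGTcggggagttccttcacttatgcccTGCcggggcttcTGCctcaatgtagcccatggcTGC
Gpc3: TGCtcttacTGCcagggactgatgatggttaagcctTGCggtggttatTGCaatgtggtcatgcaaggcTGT
Gpc4: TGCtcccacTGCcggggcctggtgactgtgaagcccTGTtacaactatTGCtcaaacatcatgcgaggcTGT
Gpc6: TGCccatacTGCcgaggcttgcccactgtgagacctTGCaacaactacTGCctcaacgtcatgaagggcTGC

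The 6 libraries held 38330019 to 46797446 reads assigned to genes. A count of 0 allows up to 3 reads, or 2.61 to 3.30 normalised reads by library, a limit that covers counting error only. The feature taken as *Charme*, listed as CUFF405, had 5, 15 and 11 reads in WT and 0, 6 and 3 reads in CharmeKO, too few to check the genotype labels. All 9 fibroblast markers on the list were tested, and their normalised reads summed to 1074920 to 2191700 per library. Sums over other cell types were lower, at 11484 to 247009 for 11 smooth muscle and pericyte genes, 888 to 14834 for 7 mesothelial genes, 1025 to 17954 for 9 macrophage genes, 68.7 to 381 for 6 endothelial genes, 136 to 794 for 3 cardiomyocyte genes, 134 to 905 for 5 Schwann cell genes and 0.961 to 12.8 for 2 B cell genes. The libraries also differed in sex chromosome genes. The Y-linked Ddx3y was at 92.3 normalised reads in WT 3 and at 2081 to 3204 in the other 5 libraries, and Xist, expressed from the inactive X chromosome, was at 7.87 in CharmeKO 2 and at 2162 to 28790 in the others, so the mix of male and female cells was not the same in each. It also went with genotype, as Xist was lower in each CharmeKO library (at most 8126) than in each WT library (at least 9850.02), and the Y-linked Ddx3y and Eif2s3y were higher in each CharmeKO library. In bulk RNA, fewer cells of a type and less RNA per cell cannot be told apart, and p-values measure the spread between these libraries.

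Sdc4, Sdc3, Sdc2 and Sdc1 were all among the well expressed genes of these cells. Levels between genes are given as normalised reads per kilobase of annotated exon, as mean ± SD over the 6 libraries. Sdc4 had the highest level, 5722 ± 2019, above 98.4% of the tested genes with a known length. Sdc3 was at 2462 ± 705, Sdc2 at 2215 ± 527 and Sdc1 at 1983 ± 432. These 3 syndecans could not be separated, as their ranges overlapped and the order of neighbours turned in 1 library for Sdc3 and Sdc2 and in 2 for Sdc2 and Sdc1.

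Among the glypicans, Gpc4 stood well above the rest at 2867 ± 1394 normalised reads per kilobase, between Sdc4 and Sdc3. Sdc4 exceeded Gpc4 in 5 of 6 libraries, and Gpc4 exceeded Sdc3 in 2 of 6. Gpc1 was at 707 ± 181 and Gpc6 at 479 ± 196, with overlapping ranges. Every library had less Gpc1 than Sdc1, and the ranges of these neighbours in the order did not overlap, with a 2.80-fold gap between the means. Gpc3 was at 34.6 ± 21.3, or 13.9-fold below Gpc6 and with no overlap, and Gpc2 was lowest at 10.7 ± 8.4. The rank depends on the length used, since per kilobase of coding sequence Gpc4 moved from rank 2 to rank 5.

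**Figure D1:**
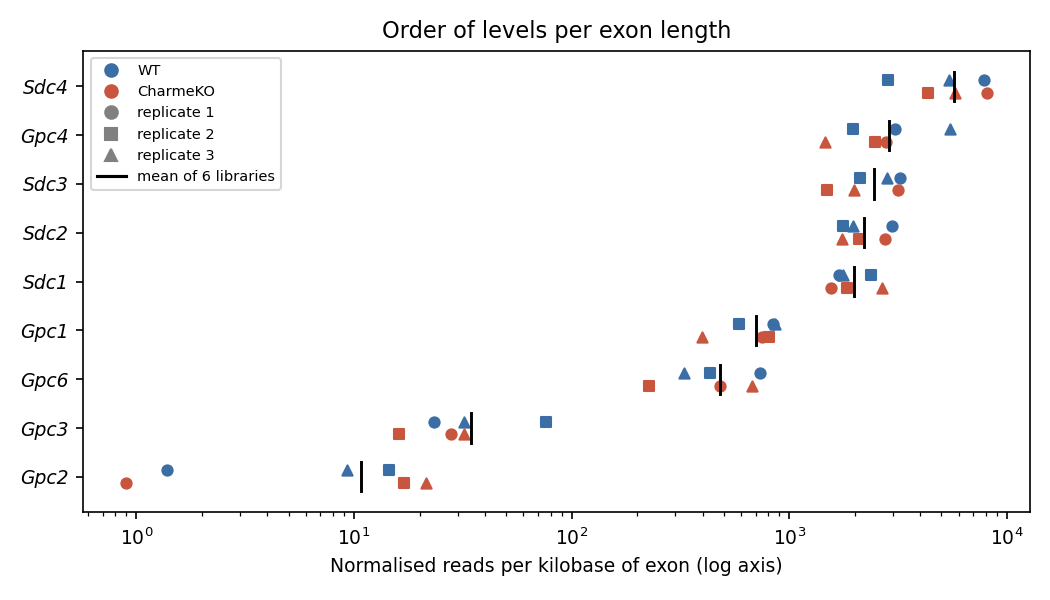
Level of each syndecan and glypican on a log axis in normalised reads per kilobase of exon, with a point for each of the 6 libraries, coloured by genotype, and a bar at the mean of the 6. Sdc4 leads with a mean of 5722, a gap separates Sdc1 from Gpc1, and Gpc3 and Gpc2 lie far below the rest at means of 34.6 and 10.7.

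Sdc4 is the widely expressed syndecan that binds protein kinase C alpha in focal adhesions, and its gene lies at chr2:164424247-164443887 on the minus strand. It was measured at 20008, 7234 and 13810.4 normalised reads in WT 1 to 3 and at 20582, 11095 and 14719 in CharmeKO 1 to 3. Both libraries numbered 1 were high and both numbered 2 were low, and the groups overlapped. The log2 difference, CharmeKO minus WT, was 0.25 (SE 0.419) with a 95% interval from -0.75 to 1.25. It was above 0 in each of the 3 pairs of equal number, at 0.04, 0.62 and 0.09, and it turned to -0.15 without WT 2.

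Sdc3, known from nervous tissue and skeletal muscle and the longest of the syndecan core proteins, lies at chr4:130792537-130826319 on the plus strand. Its values were 19241, 12674 and 16773 normalised reads in WT and 19009, 8937 and 11825 in CharmeKO. The libraries numbered 1 were again highest in each group, and CharmeKO 2 was lowest. The log2 difference was -0.34 (SE 0.322, 95% interval -1.12 to 0.43), and it was below 0 in the 3 pairs, at -0.02, -0.50 and -0.50. Without CharmeKO 2 it was -0.09. When the replicate number was kept as a block, the interval narrowed to -0.72 to 0.04 and limma's adjusted p was 0.7997, the lowest value among the 9 members, which Sdc4 shared.

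Sdc2, the syndecan typical of mesenchymal cells, lies at chr15:32920723-33034935 on the plus strand. It had 10494, 6216 and 6889 normalised reads in WT and 9740.3, 7383 and 6153 in CharmeKO, again highest in the libraries numbered 1. The groups overlapped almost entirely, with a log2 difference of -0.01 (SE 0.272, 95% interval -0.66 to 0.64), which became 0.03 with plain library sizes. Sdc1, best known from epithelia and plasma cells and induced in injured myocardium, lies at chr12:8771323-8793715 on the plus strand. Its values were 6419.9, 9028 and 6753 in WT and 5935, 7054 and 10119 in CharmeKO. Here the highest libraries were WT 2 and CharmeKO 3, and those numbered 1 were lowest in each group. The log2 difference was 0.04 (SE 0.254, 95% interval -0.57 to 0.65) and turned to -0.18 without CharmeKO 3. Sdc1 and Sdc2 had the narrowest spread of the 9 genes, with 1.70-fold and 1.71-fold between the lowest and the highest library.

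Gpc4, a glypican of the subgroup that also holds Gpc6, lies on the X chromosome at chrX:52053021-52165252 on the minus strand. It was measured at 8132, 5183 and 14467 normalised reads in WT and at 7357, 6598 and 3863 in CharmeKO. WT 3 stood highest and CharmeKO 3 lowest, while the other 4 libraries lay between 5183 and 8132. The log2 difference was -0.57 (SE 0.425, 95% interval -1.59 to 0.45), with -0.14, 0.35 and -1.90 in the 3 pairs. It shrank to -0.18 without WT 3 and to -0.28 without CharmeKO 3, and was -0.92 without WT 2. WT 3 was also the library with the highest Xist, at 28790 normalised reads, and with the highest sum over 11 smooth muscle and pericyte genes, at 247009. CharmeKO 3, the lowest for Gpc4, had 8126 normalised reads of Xist and a smooth muscle sum of 31925. Both were lowest in CharmeKO 2, at 7.87 and 11484, where Gpc4 was at 6598. CharmeKO 1 had a smooth muscle sum of 133516 with Gpc4 at 7357. That list summed to 32836 to 247009 in WT and to 11484 to 133516 in CharmeKO, and all 11 of its genes had a fitted value below 0, with a median of -1.66. Of the 11, 8 were lower in the 3 pairs, against 14% of all genes, and DESeq2 with the replicate block called 2, Actg2 (adjusted p = 8.5e-07) and Myh11 (adjusted p = 0.0006), against 0.401%, where limma called 0. These genes, like the single marker genes given elsewhere, were named after their values were seen. None of the 11 was at 0 in any library. Acta2 and Tagln made up most of each sum over this list, at 155862 and 63007 normalised reads in WT 3. The study read CF activation by alpha smooth muscle actin, the protein of Acta2, so this list does not mark a single cell type. Rgs5, Kcnj8 and Notch3 were highest in WT 2, at 997, 66.2 and 4166, and the others in WT 3. The part of smooth muscle cells, pericytes or activated CFs in the values of Gpc4 was not tested. Since Xist and 2 Y-linked genes did not overlap between the genotypes, sex mix and genotype cannot be told apart for any gene compared here. This includes the X-linked Gpc4 and Gpc3, the autosomal members and the pathway genes.

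Gpc1, a co-receptor for FGF2 found in many tissues, lies at chr1:92831645-92860779 on the plus strand. Its exons overlap those of Ankmy1 by 977 bases on the opposite strand, which counting by strand keeps apart. Its values were 4336, 3039.7 and 4428 normalised reads in WT and 3864, 4173 and 2039.6 in CharmeKO. CharmeKO 3 alone lay below the range of the others, and the log2 difference of -0.28 (SE 0.318, 95% interval -1.04 to 0.49) became 0.05 without it. Gpc6, whose loss shortens the limbs in human omodysplasia, lies at chr14:116925315-117976544 on the plus strand. It had 4721, 2789 and 2101 normalised reads in WT and 3093, 1450.1 and 4320.02 in CharmeKO. The ranges of the groups overlapped over most of their width, and the log2 difference was -0.17 (SE 0.470, 95% interval -1.30 to 0.96). It was below 0 in pairs 1 and 2, at -0.61 and -0.94, and above 0 in pair 3, at 1.04, and turned to 0.27 without CharmeKO 2 and to 0.15 without WT 1.

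Gpc3, which restrains Hedgehog signals and body growth, is the neighbour of Gpc4 on the X chromosome, at chrX:52272426-52613950 on the minus strand. It was low, at 63.0, 205 and 85.7 normalised reads in WT and 75.0, 43.3 and 86.1 in CharmeKO. WT 2 alone was well above the others, and the log2 difference of -0.65 (SE 0.551, 95% interval -1.97 to 0.67) was -0.17 without it. Gpc2, a glypican of the developing nervous system, lies at chr5:138273655-138280005 on the minus strand. It had 5.91, 61.9 and 39.5 normalised reads in WT and 3.85, 72.8 and 91.3 in CharmeKO. Both libraries numbered 1 were near the limit of 3 reads, with 6 and 4 reads, and the other 4 libraries had 36 to 105 reads, a 23.7-fold range of normalised reads over all 6. The log2 difference was 0.30 (SE 1.37, 95% interval -2.98 to 3.58), and it turned to -0.66 without WT 1. Of the 4274 exon bases of Gpc2, 2376 overlap the annotated gene Gm43720 on the same strand, and 49.7% of its stretches of 50 bases also occur in that gene. Reads there are not assigned by the authors' counting wherever both genes are annotated, so the level of Gpc2 is uncertain.

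**Figure D2:**
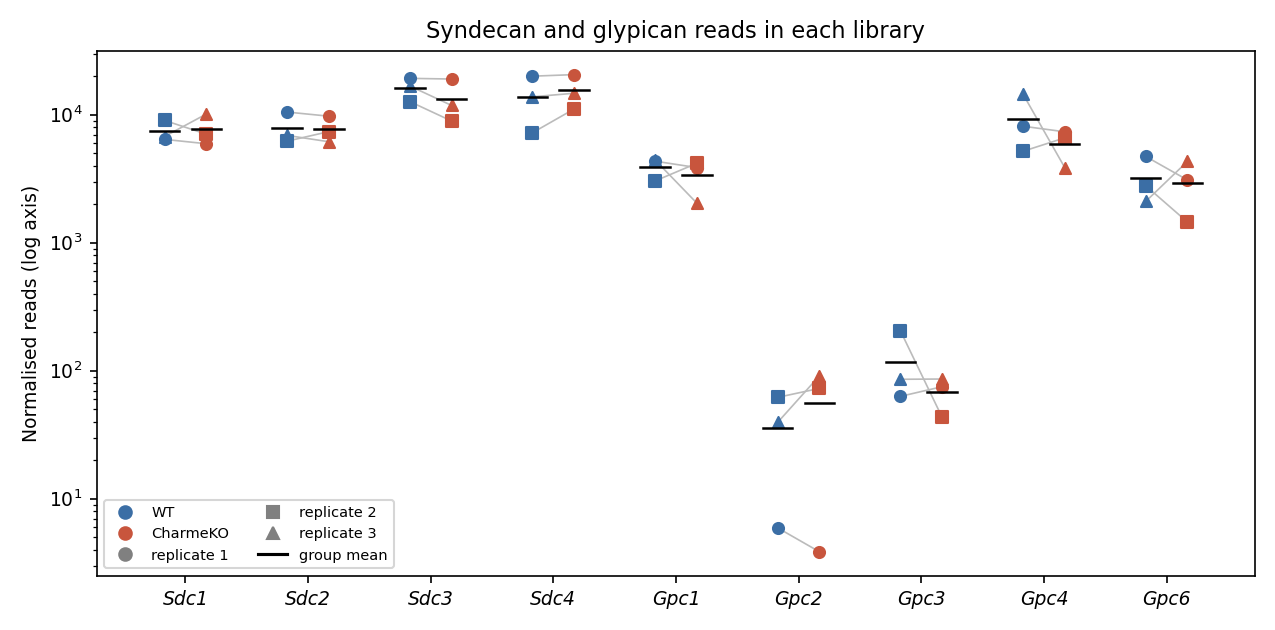
Normalised reads of each of the 9 genes in the 3 WT and 3 CharmeKO libraries on a shared log axis, coloured by genotype, with marker shapes for the replicate number, lines that join libraries of equal number, and a bar at each group mean. The ranges of the groups overlap for each gene, Sdc4, Sdc3 and Sdc2 are highest in the libraries numbered 1, and Gpc2 is lowest there at 5.91 and 3.85.

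Between CharmeKO and WT, none of the 9 genes passed the test. limma on log2(value + 1) gave 0 of 9 calls at an adjusted p under 0.05, against 0% of all 15948 genes, and 0 of 9 had an unadjusted p under 0.05, against 0.897%. The adjusted p was 0.9999 for each member. Groups were without overlap for 0 of 9, against 4.11% of all genes, and 0 of 9 differed by a log2 value of at least 1 in size, against 5.04%.

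The direction was lower in CharmeKO for 6 of the 9 genes by fitted value, against 49.6% of all genes, and the median log2 difference was -0.17 against 0.002 for all genes tested. By family, 2 of 4 syndecans and 4 of 5 glypicans had values below 0, with medians of 0.02 and -0.28. Only Sdc4 (higher) and Sdc3 (lower) kept 1 direction in the 3 pairs, 2 of 9 against 30.4% of all genes. edgeR's quasi-likelihood test on the recovered reads called 0 of 9, against 0% of all genes with and without the replicate block, and DESeq2 called 0 of 9, against 0.0502% without the block and 0.401% with it. At an unadjusted p under 0.05, the count was 0 of 9 for limma with the block (5.37% of all genes), for edgeR without it (0.991%) and with it (4.82%), and for DESeq2 without it (1.79%). It was 1 of 9 for DESeq2 with the block (5.59%), where Sdc3 had an unadjusted p of 0.0498 and an adjusted p of 0.809. The median standard error of the 9 genes was 0.419 against 0.359 for all genes, and the intervals above still hold 2-fold changes for Sdc3, Sdc4, Gpc1, Gpc2, Gpc3, Gpc4 and Gpc6.

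**Figure D3:**
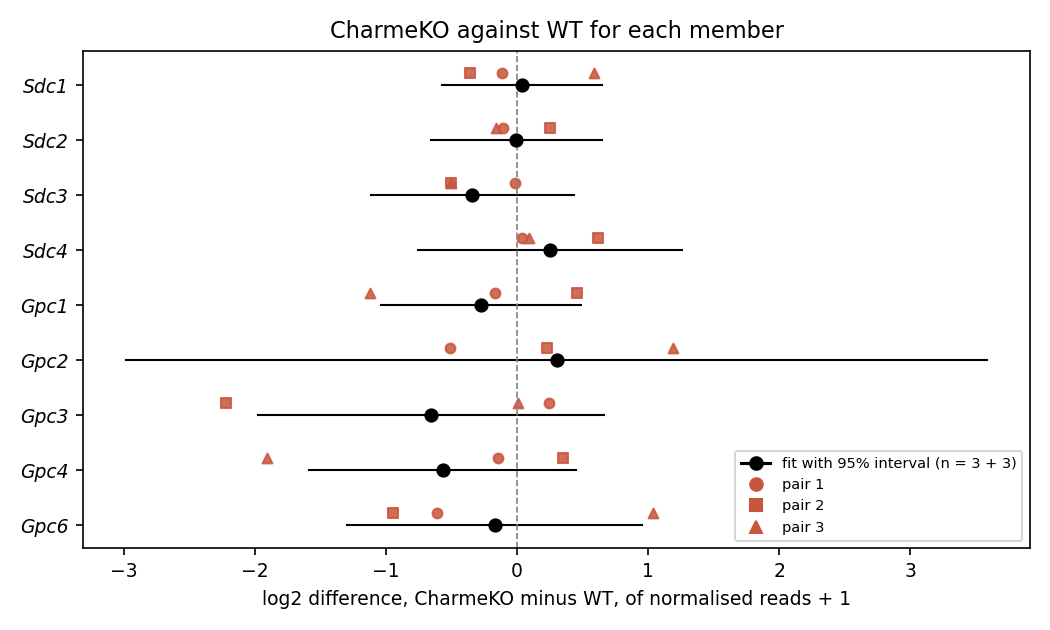
Log2 difference, CharmeKO minus WT, for each of the 9 genes, with the limma estimate and its 95% interval in black and, just above, the differences within the 3 pairs of equal replicate number. Each interval includes 0, and Gpc2 has the widest, from -2.98 to 3.58.

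The part of the variation that went with the replicate number differed widely between members. Libraries of equal number deviated together from their group means, with correlations across genes of 0.762, 0.514 and 0.217 for numbers 1, 2 and 3. WT 2 with CharmeKO 3 was at 0.222, so number 3 was no closer than an unmatched pair. Of the variance of log2 values over the 6 libraries, the number took 94.9% for Gpc2, 90.8% for Sdc2, 87.8% for Sdc4 and 73.8% for Sdc3. By degrees of freedom alone, the number would take 40% and genotype 20%. The number took 46.9% for Sdc1 and 42.8% for Gpc6, near that level, and 21.1, 9.33 and 7.98% for Gpc1, Gpc4 and Gpc3. Genotype took 0.015% for Sdc2 and at most 23.8%, in Gpc3. Over all genes tested, the median was 73.8% for the number and 5.91% for genotype, and over the 9 members 46.9% and 5.87%. The libraries numbered 1, high in Sdc2, Sdc3 and Sdc4 and low in Gpc2, also had the highest sums over 7 mesothelial genes, 13179.6 and 14834 normalised reads against 888 to 3641 in the other 4. Upk1b, Upk3b and Lrrn4 made up most of these sums, whereas Wt1, at 213 and 301, and Krt19, at 148 and 173, were not highest there. The sums over endothelial genes (299 and 381) and cardiomyocyte genes (589 and 794) were highest in the same libraries. None of the tested mesothelial genes was at 0. Tek, Vwf and Cdh5 were highest there, whereas Kdr, at 56.1 and 61.5, and Egfl7, at 15.8 and 30.8, were not. Tnnt2, at 571 and 757, made up most of the cardiomyocyte sums, and Tnni3, at 12.8 and 34.6, was not highest there. The part of these cell types in the values was not tested.

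The make-up of each family differed between libraries. Sdc4 made up 31.2 to 51.9% of the syndecan level per kilobase, with a median of 46.5%, and Sdc3 made up 15.2 to 23.4%. Sdc2 held 14.4 to 21.4%, and Sdc1 ranged from 10.004% in CharmeKO 1 to 26.1% in WT 2. The summed syndecan level was 9089 to 15729 normalised reads per kilobase and was highest in the libraries numbered 1 in both groups. Among the glypicans, Gpc4 held 56.5 to 81.7%, Gpc1 12.8 to 22.7% and Gpc6 4.89 to 26.1%, whereas Gpc3 stayed at 0.452 to 2.48% and Gpc2 at 0.0223 to 0.829%. CharmeKO 3 had the lowest share of Gpc4 and the highest of Gpc6, and WT 3 had the reverse. The summed glypican level was 2578 to 6684, with a mean of 4807 in WT and 3390 in CharmeKO and overlapping ranges.

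**Figure D4:**
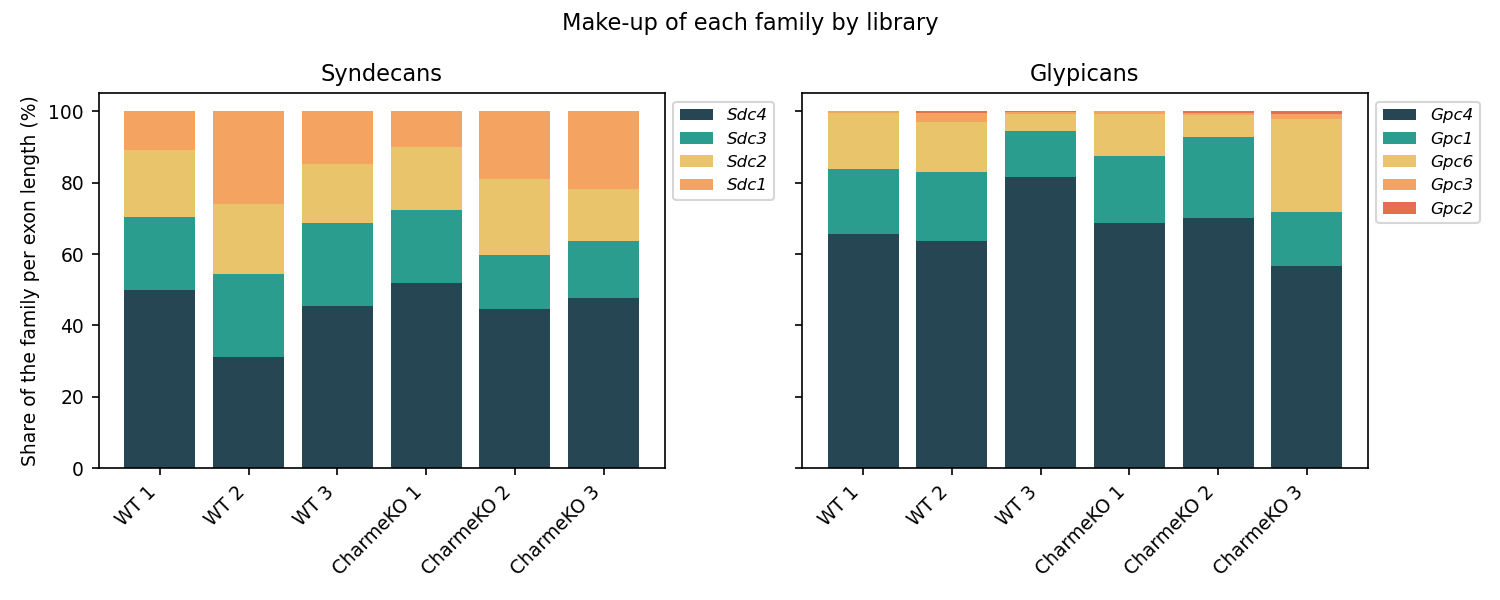
Share of each gene in the summed level of its family (normalised reads per kilobase of exon, in %), with 1 bar per library for syndecans and for glypicans. Sdc4 and Gpc4 hold the largest share of their family in each library, and the Gpc4 share runs from 56.5% in CharmeKO 3 to 81.7% in WT 3.

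Correlations of log2 values over the 6 libraries, which share culture, depth and replicate structure, are given as a description. Of the 36 pairs of members, 3 had r above 0.7 and 6 had r below -0.7. Sdc2 and Sdc4 had r = 0.764 and Gpc1 and Gpc4 had r = 0.834. Sdc1 ran against Gpc1 (r = -0.891) and Sdc2 (r = -0.825), and Sdc2 against Gpc2 (r = -0.935). The last value rests on a gene near the limit, as Gpc2 had 6 and 4 reads in the libraries numbered 1, where Sdc2 was highest. The genes most like each member, by the same measure over all tested genes, were A730056A06Rik (r = 0.995) and Bmi1 (0.991) for Sdc1, Vit (0.9996) and Hormad2 (0.997) for Sdc2, Arfip1 (0.998) and Mylk2 (0.994) for Sdc3, and Rpp30 (0.9999) and Mzt1 (0.999) for Sdc4. For the glypicans they were Defb25 (0.996) and Patj (0.990) for Gpc1, Gm35315 (0.999) and Kmt5c (0.996) for Gpc2, Sap130 (0.994) and Pcdhgb7 (0.990) for Gpc3, Eva1a (0.997) and Tle4 (0.996) for Gpc4, and Gm11382 (0.996) and Pkia (0.981) for Gpc6. With 6 libraries such values are common, as 9 genes exceeded r = 0.95 for Gpc3 and 441 did for Gpc2.

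The genes that build, modify and use heparan sulfate were read in 10 lists, with 135 genes tested of 152 listed. limma called 0 of the 135, with an adjusted p of 0.9999 or more for each. Agrn and Wnt5a, 2 of the 135, had an unadjusted limma p under 0.05, against 0.897% of all genes. Both were lower in CharmeKO. Groups did not overlap for 5 of the 135, or 3.70%, against 4.11% of all genes. Lower in CharmeKO were 3, Agrn, Wnt5a and Bmp2, against 1.98% of all genes, and higher were 2, Slc35b2 and Gusb, against 2.14%. Slc35b2 transports the sulfate donor into the Golgi apparatus, and it was named after its values were seen.

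Of the other proteoglycans that can carry heparan sulfate, 7 were tested, 3 with fitted values above 0 and 4 below, with a median of -0.30. Agrn, the basement membrane proteoglycan agrin, was at 5321, 6003 and 5656 normalised reads in WT and 3682, 2919.9 and 5089.8 in CharmeKO. Each CharmeKO library lay below each WT library, with a log2 difference of -0.57 (SE 0.227, 95% interval -1.12 to -0.03) that did not pass the adjusted test. The hyaluronan receptor Cd44, which carries heparan sulfate in some splice forms, had a difference of -0.66 (SE 0.625).

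No gene of chain synthesis passed the test between the genotypes. Enzymes of the linker and of the sugar and sulfate donors had 8 of 15 values above 0 and a median of 0.01, with the lowest p for Papss2 (-0.67, SE 0.427) and Slc26a2 (-0.24, SE 0.215), a maker of the sulfate donor and a sulfate transporter. The polymerases Ext1 and Ext2, which extend the chain, were at -0.06 (SE 0.274) and 0.06 (SE 0.236), and the list of 5 had a median of 0.06. The 2 members of that list with the lowest p were Extl1, at 0.88 (SE 1.04) with 4.27 to 49.2 normalised reads, and Extl2, at 0.11 (SE 0.162). Sulfotransferases and the epimerase had 8 of 10 values below 0 and a median of -0.16, led by the low Hs3st3b1 (-1.01, SE 0.745) and Ndst3 (-0.68, SE 0.668), while the main N-sulfating enzyme Ndst1 was at -0.14 (SE 0.235).

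Of the 3 tested enzymes that edit or cut the chain outside the cell, the sulfatases had fitted values of opposite sign, and neither passed the test. The median of the 3 was -0.39, with -0.15 by edgeR, -0.16 by DESeq2 and 0.17 without CharmeKO 3. Sulf1 was at -0.83 (SE 0.744) and Sulf2 at 0.46 (SE 0.425). The lysosomal enzymes that degrade the chain had 6 of 8 values above 0 and a median of 0.11. Among them Gusb, the beta-glucuronidase, had 5890.1, 5419 and 4594 normalised reads in WT and 6494, 6559 and 6093 in CharmeKO, without overlap, and a log2 difference of 0.27 (SE 0.159), and Ids, the iduronate sulfatase, was at -0.21 (SE 0.163). The list of syndecan shedding and glypican cleavage had a median of -0.07 over 19 genes. Besides proteases and convertases, it holds the protease inhibitor Timp3 and the enzymes Gpld1, Gde1 and Gdpd5, which are not proteases. Its genes of lowest p were Pcsk6 at -0.85 (SE 0.371) and Mmp16 at -0.56 (SE 0.535). The list of cytoplasmic partners holds proteins that bind syndecan tails and signalling proteins linked to them, such as Rac1 and Rhoa. It had 11 of 16 values below 0, against 49.6% of all genes, and a median of -0.07. Src was at -0.30 (SE 0.209) and Cask at -0.24 (SE 0.308).

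Ligands that bind heparan sulfate had 13 values above 0 and 18 below, with a median of -0.05, which was 0.13 by edgeR and 0.04 without WT 3. Wnt5a, a Wnt that acts without beta-catenin, was at 1699.8, 2461 and 2174 normalised reads in WT and 1362, 909 and 1009 in CharmeKO. The groups did not overlap, and the log2 difference was -0.95 (SE 0.229, 95% interval -1.50 to -0.40), with a limma adjusted p of 0.9999. Bmp2, a bone morphogenetic protein, was low, at 40.4, 131 and 69.2 against 33.7, 33.4 and 27.8, with a difference of -1.16 (SE 0.520, 95% interval -2.41 to 0.09). DESeq2 with the replicate block called 2 of the 31 ligands, Hbegf (lower, adjusted p = 0.036) and Sfrp1 (higher, adjusted p = 0.034), against 0.401% of all genes. Both were named after their values were seen. Receptors that use heparan sulfate or proteoglycans as partners had 18 of 21 values below 0 and a median of -0.30, or -0.13 without WT 3. Of the 21, 7 were lower in the 3 pairs, against 14% of all genes, and 0 were higher, against 16.4%. Its genes of lowest p were the phosphatase Ptprf (-0.98, SE 0.560) and the VEGF receptor Kdr (-0.83, SE 0.475), and neither passed the adjusted test. Kdr was low, at 24.4 to 79.0 normalised reads, and is also among the endothelial marker genes.

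**Figure D5:**
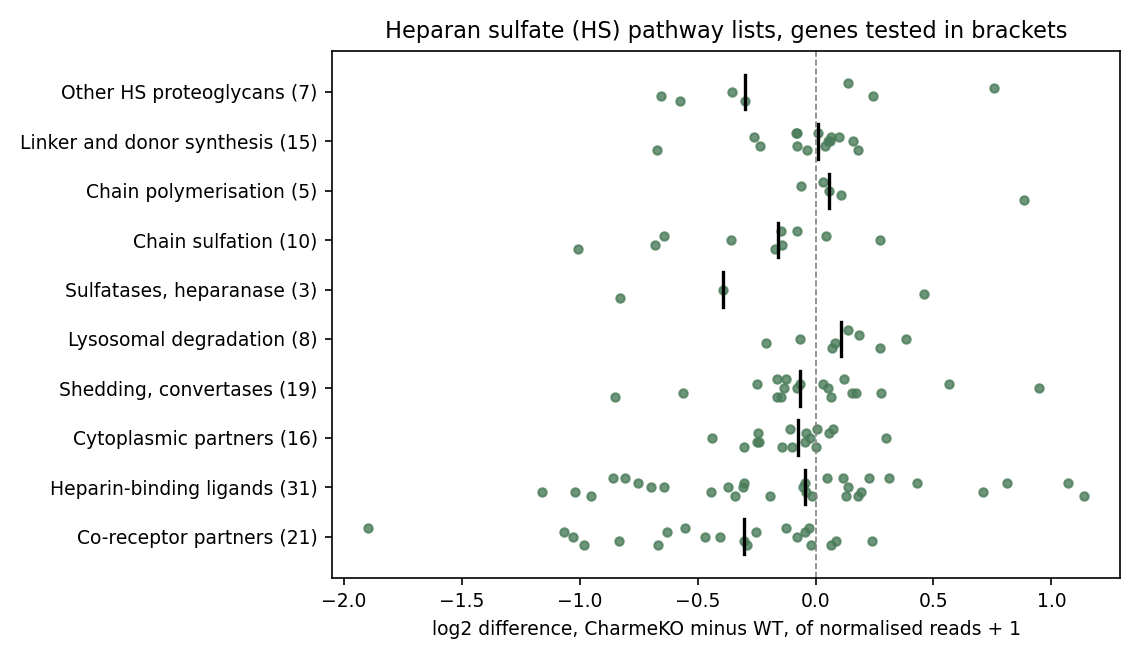
Log2 difference, CharmeKO minus WT, of each tested gene in the lists of heparan sulfate biology, with a point per gene and a bar at the list's median. Medians run from -0.39 for the 3 sulfatases and heparanase, a value that is 0.17 without CharmeKO 3, to 0.11 for lysosomal degradation, and no gene passed limma's adjusted test.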

How the data were processed

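Poly(A) RNA-seq with a directional kit had been performed on 3 WT and 3 CharmeKO libraries of cultured CFs, grouped by sample title. Per the study's methods, the authors used STAR for alignment and for strand-specific gene counts (reverse setting) on an Ensembl annotation edited to include *Charme*, filtered out low genes and scaled the counts with DESeq2. The labels name the builds GRCm39 and GRCh38 without a role, and the coordinates and lengths given here are from GRCm38 and GENCODE M21. The deposited values are a normalised signal, gene reads divided by a size factor per library.

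Dividing by the smallest positive value of each library returned whole reads for 100% of 116676 values (tolerance 1e-06). STAR's gene counting leaves out reads that fit several places or several genes on 1 strand. Exon lengths were found for 99.7% of tested genes. A filter of 10 or more reads in 2 or more libraries left 15948 genes. Genotype alone was modelled in limma 3.58.1 (R 4.3.3, eBayes with trend) on log2(value + 1). P-values were two-sided and adjusted by Benjamini-Hochberg over all of these, at 0.05. Fold changes on this scale understate those of low genes.

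Same-numbered libraries correlated in their deviations at 0.762, 0.514 and 0.217, each above the minimum of 0.1, so the numbers in the sample titles were taken to pair them. Other pairs were at -0.643 to 0.222, and the highest of these, WT 2 with CharmeKO 3, exceeded number 3. The minimum thus does not set number 3 apart from an unmatched pair. Pair 3 rests on the titles alone, and so do its part in the pair counts and the block. Alternatives were edgeR 4.0.16 and DESeq2 1.42.0 on recovered reads (0 and 8 genes called), fits with the replicate block, other pseudocounts, filters and scalings, and leaving out each library. The scripts were tested on simulated data. All 9 members are named, with the 2 genes most correlated with each and the 2 of lowest p per pathway list. Members and lists were chosen with earlier results of these data known. The study's methods state for its experiments in general that primary isolations were independent, and the labels do not say so for single libraries.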

Additional observations from a re-analysis of the deposited data

How the results depend on the processing

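No member was called under any of the 17 alternatives, and the lowest adjusted p of a member was 0.7997, in limma with the replicate block. Apart from leaving out libraries, each member kept its direction under each alternative, except Sdc2, which was 0.027 with plain library sizes. Gpc2 had no value with a minimum of 10 reads in all 6 libraries. The number of all genes called rose from 0 to 8 under DESeq2's Wald test and to 64 once DESeq2 included the replicate block, and the latter called 2 of the ligands and 2 smooth muscle genes, Actg2 and Myh11. The block changed no call among the 9 members, and no other call in the 10 pathway lists. The median of the other proteoglycans was -0.18 with edgeR and -0.19 with DESeq2's Wald test. That of the shedding list was 0.017 with edgeR, 0.0080 with DESeq2's Wald test, -0.017 without a filter and -0.033 with plain library sizes. That of the ligands was 0.13 with edgeR and 0.12 with DESeq2's Wald test, and that of the sulfatases and heparanase -0.15 and -0.16. The cause of these shifts was not tested. Leaving out each library in turn gave ranges of -0.18 to 0.21 for Sdc1, -0.18 to 0.22 for Sdc2, -0.64 to -0.09 for Sdc3, -0.15 to 0.58 for Sdc4, -0.47 to 0.050 for Gpc1, -0.66 to 1.66 for Gpc2, -1.01 to -0.17 for Gpc3, -0.92 to -0.18 for Gpc4 and -0.51 to 0.27 for Gpc6. For list medians the ranges were -0.46 to -0.03 for other proteoglycans, -0.12 to 0.025 for linker and donor synthesis, -0.36 to -0.077 for sulfation, 0.0020 to 0.29 for lysosomal enzymes, -0.058 to 0.026 for shedding, -0.26 to 0.11 for tail partners, -0.98 to 0.17 for the sulfatases and heparanase, -0.023 to 0.21 for polymerisation, -0.28 to 0.038 for ligands and -0.45 to -0.13 for receptors. With plain library sizes, levels per kilobase moved by less than the SD between libraries for each member. Leaving out 1 of 6 libraries cannot move a mean by that much, so it does not test this. Those means ran from 5251 to 6299 for Sdc4 and from 2349 to 3149 for Gpc4. At 4 to 105 reads, depth limits Gpc2, and with 3 libraries a group the intervals of 7 of the 9 genes include 2-fold changes.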
